A study of Mus musculus with 52 samples.

Results

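The genes described here are the 5 subunits of the mouse signal peptidase complex (Sec11a, Sec11c, Spcs1, Spcs2 and Spcs3) and Arxes1 and Arxes2, copies of Spcs3 on the X chromosome, 7 of the 24421 gene symbols in the count tables. The subunits were taken as the known complex. Arxes1 and Arxes2 were chosen by their measured difference between mutant and control clones in these data, so their mutant values are given as a description and without a test. RNA was sequenced from Cilia-APEX-IMCD3 cells, a mouse inner medullary collecting duct line that carries a peroxidase directed to the primary cilium. Clones were homozygous for changes made with the cytosine base editor BE4-Gam in Wdr34 or Wdr60, whose products are intermediate chains of the dynein-2 motor of retrograde intraflagellar transport. Control clones had received the editor and the guide vector BPK1520 without a target oligo.

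In the ciliated state there were 3 mutants, a Wdr60 clone and Wdr34 clones with the label numbers 1 and 3, beside 4 controls named A4, D8, G7 and H12. In the non-ciliated state there were 2 mutants, a Wdr34 clone and a Wdr60 clone, beside 4 controls named AB, 1, 2 and 3. The labels of AB lack the prefix BE of the other non-ciliated sets, and do not say whether AB was made in another way. The edits were missense alleles, 1 in Wdr60 and 2 in Wdr34, and the sample labels do not say which Wdr34 allele each ciliated clone carries. In Wdr34 they replaced an arginine by tryptophan or a glycine by serine, and in Wdr60 an alanine by valine. The glycine-to-serine clone was made after the non-ciliated cells had been sequenced, which leaves the arginine-to-tryptophan allele for the non-ciliated Wdr34 clone. The methods also give unintended heterozygous changes, a missense change in Wdr34 in the glycine-to-serine clone and a synonymous change in the Wdr60 clone. Clones were picked after single cell sorting. The labels form 13 sets of 4 libraries, which the methods call technical replications, but the methods name 4 control and 3 mutant clones in all, so that sets of the 2 states are probably not from separate clones. The labels give the controls other names in each state and do not tie them. A set is called a clone within its state here, and counts and correlations across states may hold a clone more than once. Ciliated cells were starved in 0.2% serum for 50 h, whereas the labels give 10% serum for all samples; non-ciliated cells were also sequenced first, so that cilium, serum and sequencing run cannot be told apart. With 2 or 3 mutant clones per state, a mutation cannot be told apart from other properties of its clones.

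Signal peptidase sits in the membrane of the endoplasmic reticulum (ER) and removes the signal peptide from proteins as they enter the secretory pathway. SEC11A and SEC11C are alternative catalytic subunits, SPCS3 is the accessory subunit without which the complex does not form properly, and SPCS1 and SPCS2 are further accessory subunits. Arxes stands for adipocyte-related X-chromosome expressed sequence, and the Arxes genes are known from the differentiation of fat cells, where they respond to the nuclear receptor PPARG. Being retrocopies, they arose from a reverse-transcribed Spcs3 mRNA and lack introns.

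The relation between the 3 genes was read from the transcript models of GENCODE M21 (GRCm38) that match their RefSeq transcripts. Spcs3 (chromosome 8, 54520433-54529998, minus strand) has 5 exons, whereas Arxes2 (chromosome X, 135993820-135995359, plus strand) and Arxes1 (chromosome X, 136033367-136034946, plus strand) have 1 exon each, and their starts lie 39.5 kb apart. The other subunit genes have several exons as well: Spcs1 has 4 (chromosome 14, 30999826-31001666, minus strand), Spcs2 has 5 (chromosome 7, 99837569-99870340, minus strand), Sec11a has 6 (chromosome 7, 80915379-80947550, minus strand) and Sec11c has 6. All 3 coding sequences of Spcs3 and its copies are 543 bases long with the stop codon. The Arxes1 and Arxes2 coding sequences were identical at 543 of 543 bases, and each differed from Spcs3 at 114 bases (79.0% identity) with 0 gaps. The first 120 coding bases are shown for the 3 genes, with capitals where the Arxes copies and Spcs3 differ (16 positions), because these differences separate reads of the copies from reads of the parent gene.
Arxes1 (chrX:136033506-136033625, plus strand): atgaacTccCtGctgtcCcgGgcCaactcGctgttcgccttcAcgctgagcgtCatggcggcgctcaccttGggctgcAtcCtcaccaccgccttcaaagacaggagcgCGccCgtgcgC
Arxes2 (chrX:135993959-135994078, plus strand): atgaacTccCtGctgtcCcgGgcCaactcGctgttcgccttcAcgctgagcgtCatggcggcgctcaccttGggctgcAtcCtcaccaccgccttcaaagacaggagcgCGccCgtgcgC
Spcs3 (chr8:54529786-54529905, minus strand): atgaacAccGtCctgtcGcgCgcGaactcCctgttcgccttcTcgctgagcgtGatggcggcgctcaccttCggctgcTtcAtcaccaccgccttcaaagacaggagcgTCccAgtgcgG

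The longest run of bases shared by an Arxes transcript and Spcs3 was 27 bases, and 0 of the 1383 windows of 150 bases (the read length) in Arxes2 occurred in Spcs3. Arxes1 and Arxes2 shared a run of 639 bases, and 34.2% of the 150-base windows of Arxes1 and 35.4% of those of Arxes2 were the same in both. Past the coding sequence the pair diverged. The last 850 bases of Arxes1 and the last 805 bases of Arxes2 had no match within the alignment. Reads from the shared first part cannot be assigned to 1 copy, and how such reads were counted is not given in the sources used here. The split between the copies is therefore uncertain. Their sum is uncertain too if such reads were left out or counted for both copies.

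**Figure D1:**
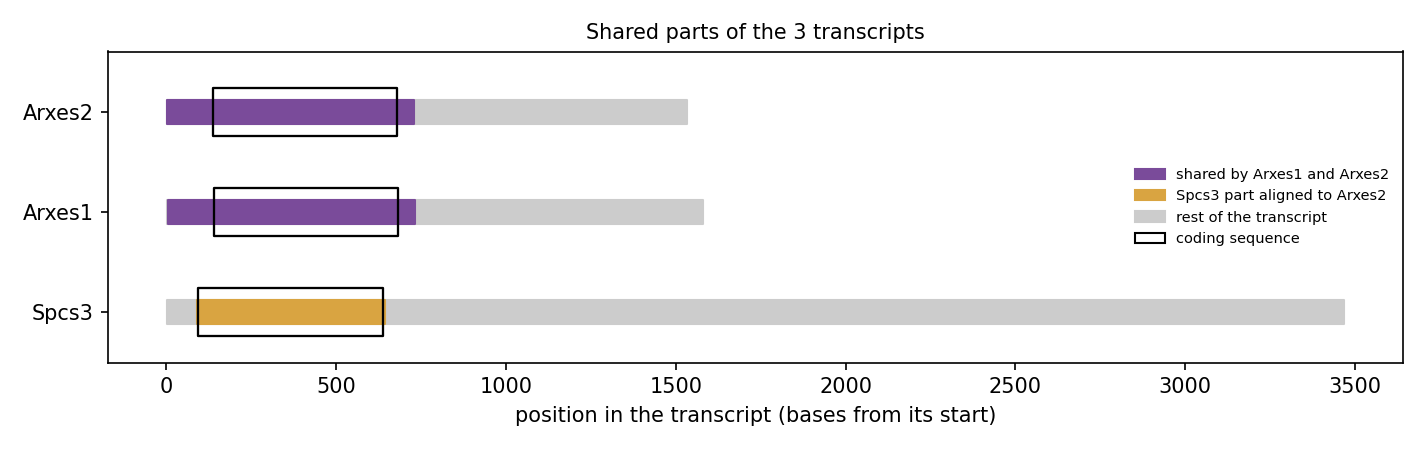
Transcripts of Spcs3, Arxes1 and Arxes2 drawn to scale in bases from the transcript start, with the coding sequences as black frames of 543 bases each. Purple marks the part that Arxes1 and Arxes2 share, orange the part of Spcs3 that aligns to Arxes2, and grey the rest; the shared part covers the whole Arxes coding sequence, and both 3′ ends are unshared.

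The copies also share their upstream sequence: the RefSeq promoter windows (GRCm38.p6) were identical at 300 of 300 bases. RefSeq windows were given for 5 of the 7 genes. The 250 bases before the start are shown once for both copies, since both were high in the same clones, with capitals for the GC box GGGCGG on either strand.
Arxes1 (chrX:136033117-136033366, plus strand) and Arxes2 (chrX:135993570-135993819, plus strand): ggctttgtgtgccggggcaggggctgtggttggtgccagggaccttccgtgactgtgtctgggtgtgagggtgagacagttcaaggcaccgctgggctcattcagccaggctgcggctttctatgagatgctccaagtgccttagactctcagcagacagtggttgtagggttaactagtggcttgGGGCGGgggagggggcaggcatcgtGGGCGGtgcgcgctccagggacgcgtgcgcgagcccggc

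This window held 2 GC boxes, at bases 187 and 212, and GGGCGG was found on either strand in 32.7% of 32851 promoter windows of that length. It held 0 matches to CCAAT (33.8% of windows), TATAAA (12.4%), the nuclear receptor element AGGTCA (14.0%) or CACGTG (6.0%), searched on both strands.

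Library totals were 14816218 to 28084979 counts (52 libraries). Levels are given as CPM, the count relative to the library total, scaled by TMM over the 52 libraries. The best match of each of the 52 libraries among those of its state was a library of its own set. Within sets, replicate 1 of AB, of non-ciliated Wdr60 and of A4 and replicate 4 of G7 stood apart from the others, and in ciliated Wdr60 replicates 1 and 2 stood apart from 3 and 4 (chi-square per degree of freedom of 27.6 to 104 between them and the rest of the set, against a median of 5.47 over all pairs). Wdr34, the edited gene, was measured at 21.6 ± 1.97 CPM in ciliated Wdr34 mutant 3 and at 46.6 ± 4.63 CPM in Wdr34 mutant 1 (SD, n = 4 libraries each), against 31.5 to 43.5 CPM in the ciliated control clones; base editing need not change the mRNA level. Of 12 collecting duct markers, Cdh16, Pax2 and Pax8 were at 79.6 CPM or above in every clone, the water channel gene Aqp2 had 1 count in all 52 libraries, and the epithelial cadherin Cdh1 ranged from 4.27 to 649 CPM between clones. In non-ciliated mutants Cdh16 (-0.62), Pax2 (-0.68) and Pax8 (-0.47) were lower than in controls (adjusted p of 1.56e-06, 0.017 and 0.025, edgeR), 3 of 10 tested markers beside 15% of all genes. These 3 calls were lost with the clone as a block (adjusted p of 0.0564, 0.428 and 0.561, voomLmFit) and with summed libraries (0.976 each, edgeR). Their log2 fold changes with the block were -0.61, -0.59 and -0.44. In ciliated mutants 0 of 10 passed, beside 3.17%. Between control states 6 of 10 were higher in ciliated cells, a count near the share of all genes that passed (61.9%). Among them were Hsd11b2 (2.08), Epcam (1.41) and Cdh16 (1.08). With summed libraries Cdh16 passed (adjusted p = 0.0132), and Hsd11b2 (0.0627) and Epcam (0.4) did not (edgeR). With the clone as a block Cdh16 (9.97e-07) and Hsd11b2 (0.0192) passed, and Epcam (0.0963) did not (voomLmFit). The part of these markers in the subunit changes below was not tested.

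Arxes2 was the more abundant copy and was high in each of the 5 mutant sets and in 1 control set. In ciliated mutants its level over the 12 libraries ran from 1.20 to 3.74 CPM with a median of 1.91 CPM (20 to 69 counts). In the 16 ciliated control libraries it ran from 0.0541 to 0.635 CPM with a median of 0.222 CPM (1 to 15 counts). The 2 sets of ciliated libraries did not overlap. Means over clones were 2.15 ± 0.765 CPM in mutants (SD, n = 3 clones) and 0.28 ± 0.138 CPM in controls (SD, n = 4 clones), and the fitted log2 fold change was 2.88 (SE 0.29), a 7.38-fold higher level. By clone, the fitted difference from the 4 controls was 3.37 (SE 0.39) for Wdr34 mutant 3, 2.69 (SE 0.41) for Wdr60 and 2.42 (SE 0.42) for Wdr34 mutant 1. Clone means did not overlap for 1.95% of all 11950 genes tested in ciliated cells, and 3.17% had an adjusted p under 0.05; these contrasts chose the gene, so nothing is read from that.

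In non-ciliated mutants Arxes2 ran from 2.64 to 3.68 CPM over 8 libraries, with a median of 2.87 CPM (42 to 60 counts). The 16 non-ciliated control libraries ran from 0 to 3.08 CPM with a median of 0.509 CPM (0 to 49 counts). These sets overlapped through 1 library, replicate 1 of control AB at 3.08 CPM; the other libraries of AB were at 1.87 to 2.23 CPM. Control AB had 49, 43, 38 and 38 counts, or 2.30 ± 0.541 CPM (SD, n = 4 libraries), whereas control 2 had 12 to 15 counts, control 1 had 1 to 5 and control 3 had 0 to 3. Its replicate 1, which stood apart from the clone's other libraries, was the highest of the 4, and the other three lay above every library of controls 1, 2 and 3 as well. The fitted log2 fold change of non-ciliated mutants against controls was 1.84 (SE 0.56) with AB and 3.10 (SE 0.45) without it, and 2.90 (SE 0.77) with AB when the clone was a block (voomLmFit). Mutant and control clones had separate ranges for 13% of 12012 genes, and 15% had an adjusted p under 0.05.

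**Figure D2:**
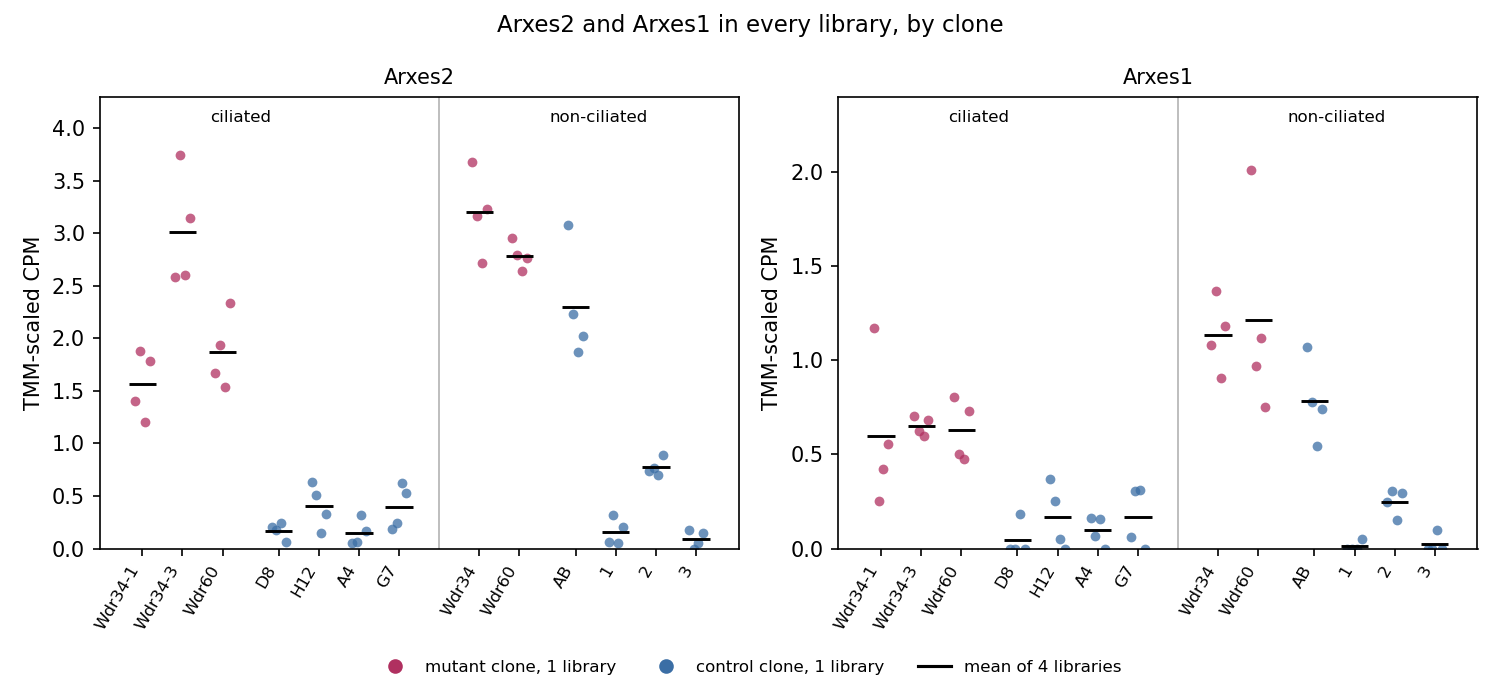
TMM-scaled CPM of Arxes2 (left) and Arxes1 (right) in each of the 52 libraries, by clone, with mutant clones in red, control clones in blue and a bar at the mean of 4 libraries. Arxes2 lies at 1.20 CPM or above in every mutant library, and among controls the 4 libraries of non-ciliated clone AB reach 1.87 to 3.08 CPM.

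In order of clone means, Arxes2 ran from 3.20 CPM in non-ciliated Wdr34 through 3.02 in ciliated Wdr34 mutant 3, 2.78 in non-ciliated Wdr60, 2.30 in control AB, 1.87 in ciliated Wdr60 and 1.56 in ciliated Wdr34 mutant 1 to 0.775 in non-ciliated control 2. The remaining 6 controls lay between 0.0924 and 0.405 CPM. Libraries of adjoining clones in this order overlapped in all but 2 of the 12 steps, which were those on either side of control 2. Among ciliated mutants, Wdr34 mutant 3 was 1.95-fold above Wdr34 mutant 1 (log2 fold change 0.96, SE 0.21), and their libraries did not overlap.

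Arxes1 followed Arxes2 at a lower level. Over libraries it ran from 4 to 21 counts in ciliated mutants and from 0 to 7 counts in ciliated controls, so that these sets overlapped at this depth. Clone means were 0.6 to 0.652 CPM in ciliated mutants and 0.0452 to 0.169 CPM in ciliated controls. In non-ciliated mutants it ran from 12 to 32 counts (clone means 1.13 and 1.21 CPM), in control AB from 11 to 17 counts (0.783 CPM) and in the other non-ciliated controls from 0 to 6 counts. It was at 0 counts in 12 of 52 libraries, all of them controls, and a count of 0 allows up to 3 counts. The expression filter removed Arxes1 from the ciliated fit. The fitted log2 fold change in non-ciliated cells was 2.10 (SE 0.58), 3.51 (SE 0.51) without AB, and 3.10 (SE 0.86) with the clone as a block (voomLmFit). Across the 13 sets, with each state centred on its mean, Arxes1 and Arxes2 had a Pearson r of 0.98 (Spearman rho 0.95) on log2(CPM + 0.5), with the shared reads noted above. Arxes2 and Spcs3 had an r of -0.13 (rho -0.15) on the same scale.

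The ratio of the copies was not used to choose the genes. Arxes1 made up 25.3% of the 1605 counts of both copies (95% Wilson interval 23.2 to 27.5%). The share was 22.5% (19.4 to 26.0%) in ciliated mutants, 28.6% (21.2 to 37.3%) in ciliated controls, 28.2% (24.6 to 32.1%) in non-ciliated mutants and 24.4% (20.0 to 29.4%) in non-ciliated controls. These intervals cover counting error only. By clone it lay between 17.8% (13.7 to 22.7%) in ciliated Wdr34 mutant 3 and 38.9% (20.3 to 61.4%) in control A4, apart from 8.33% (1.49 to 35.4%) in non-ciliated control 1, which rests on 1 of 12 counts. Of the 13 intervals by set, only that of ciliated Wdr34 mutant 3 did not reach the pooled share.

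Even in mutants the copies were rare beside their parent gene. Per kilobase of transcript, Arxes1 and Arxes2 together reached 3.56% to 4.43% of Spcs3 in the 5 mutant sets and 2.93% in control AB. In the other 7 control sets they reached 0.108% to 1.01%. These percentages use full transcript lengths and depend on how shared reads were counted. On the same scale the median clone level was 59.5 CPM per kb for Spcs1, 58.3 for Spcs3, 37.4 for Sec11a, 30.2 for Spcs2, 20.1 for Sec11c, 0.506 for Arxes2 and 0.158 for Arxes1.

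**Figure D3:**
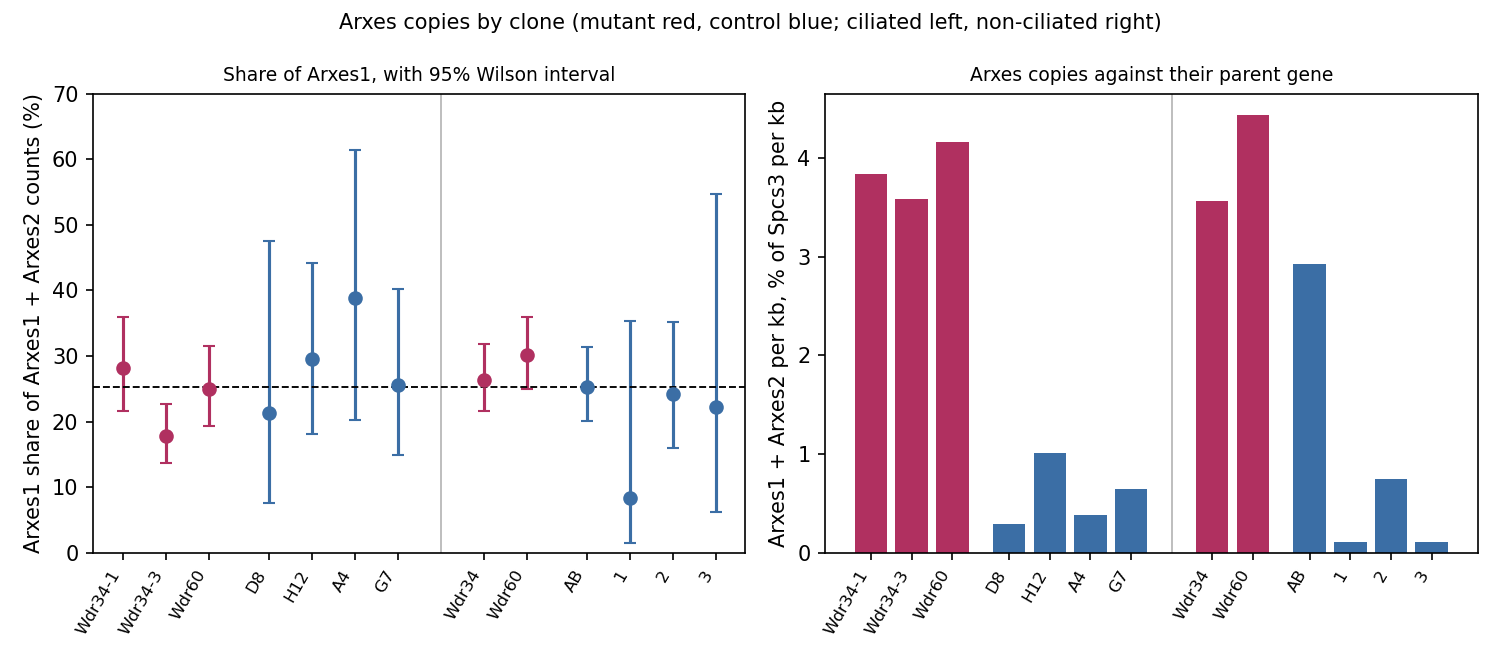
Left, share of Arxes1 among the counts of both Arxes copies by clone, in percent, with 95% Wilson intervals; the dashed line is the share over all libraries, 25.3%. Right, summed Arxes1 and Arxes2 CPM per kb as a percentage of Spcs3 CPM per kb; the 5 mutant sets (red) reach 3.56% to 4.43% and control AB 2.93%.

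The subunits of signal peptidase were then compared between mutants and controls. In ciliated mutants against controls 0 of 5 subunits passed an adjusted p of 0.05 (edgeR quasi-likelihood test, Benjamini-Hochberg over all genes), beside 3.17% of all genes. Their log2 fold changes ran from -0.02 to 0.08 (median 0.02; median of all genes -0.01), with a smallest adjusted p of 0.66. Spcs3 was at 164 ± 57.6 CPM in mutants (SD, n = 3 clones) and 157 ± 29.8 CPM in controls (SD, n = 4 clones). In non-ciliated mutants 0 of 5 passed as well, beside 15% of all genes. At an unadjusted p under 0.05 there were 3, namely Spcs3 (log2 fold change -0.27, SE 0.11), Sec11c (0.19, SE 0.09) and Sec11a (0.14, SE 0.06), with adjusted p of 0.104, 0.15 and 0.148 in the edgeR test. DESeq2 also passed 0 subunits in either contrast. Without control AB the non-ciliated contrast passed 2 subunits, Spcs3 (-0.35, adjusted p = 0.0191) and Spcs1 (0.15, adjusted p = 0.0135), by edgeR. Spcs1 alone passed without replicate 1 of every clone (0.18, adjusted p = 0.0165), and Spcs3 alone without the Wdr34 clone (-0.50, adjusted p = 0.0245). The mutant effect of the subunits did not pass a test of a difference between states (0 of 5, smallest adjusted p = 0.437, edgeR), beside 1.89% of all genes.

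The libraries are replicates of few clones, so that these p-values measure the spread between libraries. Over clone means, an exact 2-sided permutation test gave the subunits p-values of 0.686 to 0.943 in ciliated cells and 0.133 to 0.667 in non-ciliated cells. Spcs1 was the only subunit whose clone means did not overlap in a mutant comparison: they were 59.6 and 61.6 CPM in the non-ciliated mutants and 51.5 to 59.3 CPM in their controls, beside 13% of all genes without overlap. Its libraries did overlap, and over the 13 sets it had an r of 0.52 (rho 0.57) with Arxes1 and of 0.44 (rho 0.47) with Arxes2. The other subunits had an r of -0.28 to 0.36 with either copy. The smallest p the permutation test allows is 0.0286 for 3 against 4 clones and 0.0667 for 2 against 4 clones.

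**Figure D4:**
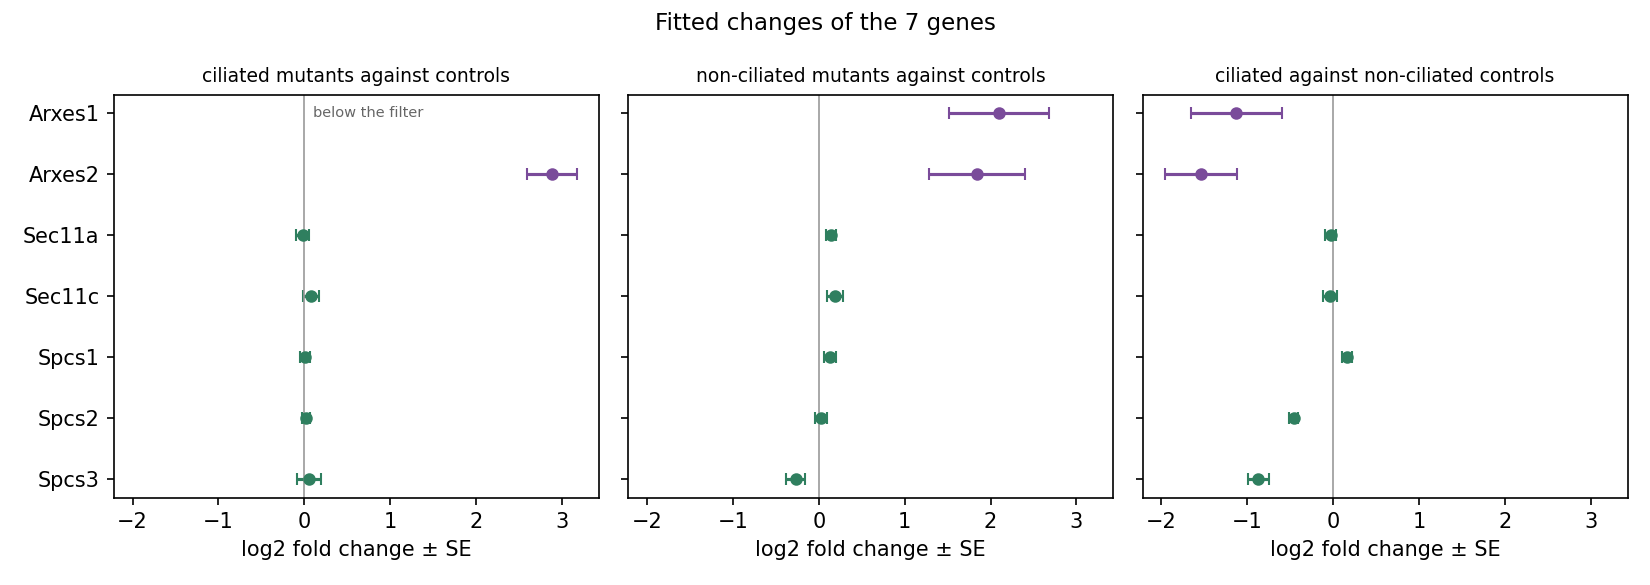
Fitted log2 fold changes (points) with standard errors (bars) of the 7 genes in 3 comparisons; the Arxes copies are in purple and the subunits in green, and Arxes1 fell below the expression filter in ciliated cells. In both mutant comparisons the subunits lie between -0.27 and 0.19, and in the comparison of control states Spcs3 and Spcs2 lie at -0.87 and -0.46.

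Single clones were compared with the 4 controls of their state. In ciliated Wdr34 mutant 3, Spcs3 rose by 0.54 on the log2 scale (SE 0.14, adjusted p = 0.0103) and Sec11c by 0.37 (SE 0.10, adjusted p = 0.0115) by edgeR, 2 of 5 subunits beside 20.8% of all genes. Spcs3 had 217 to 238 CPM in its 4 libraries against 114 to 233 CPM in the 16 control libraries, an overlap through control G7. Sec11c had 20.3 to 24.2 CPM against 12.5 to 18.8 CPM, without overlap. Without replicate 3 of every clone neither passed (adjusted p = 0.0716 and 0.159, edgeR), nor did Spcs3 without replicate 4 (adjusted p = 0.0677). In ciliated Wdr34 mutant 1 (2.20% of all genes passed) and ciliated Wdr60 (6.34%) 0 of 5 subunits passed in edgeR, with 1 subunit each at an unadjusted p under 0.05. DESeq2 passed 0 in either clone.

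In the non-ciliated Wdr60 clone Spcs3 fell by 0.50 on the log2 scale (SE 0.14, adjusted p = 0.0245, edgeR), 1 of 5 subunits beside 12% of all genes. Its libraries ran from 186 to 234 CPM and the non-ciliated controls from 221 to 369 CPM, with an overlap of these ranges. The call was lost without replicate 2 (adjusted p = 0.115), replicate 3 (0.147) or replicate 4 (0.158). In the non-ciliated Wdr34 clone 0 of 5 passed in edgeR, beside 11.5% of all genes, with Sec11c (0.29, SE 0.10, adjusted p = 0.0621) and Sec11a (0.20, SE 0.08, adjusted p = 0.127) at an unadjusted p under 0.05. Sec11c passed there by DESeq2 (adjusted p = 0.0415), and by edgeR without control AB (adjusted p = 0.015) or control 1 (adjusted p = 0.036). With the libraries of each clone summed, so that clones are the replicates, the 3 subunit changes seen in single clones did not pass. Their log2 fold changes were 0.56 (Spcs3) and 0.37 (Sec11c) in Wdr34 mutant 3 and -0.51 (Spcs3) in Wdr60. Sums of the same libraries give like fold changes by construction. With the clone as a block they did not pass either (0.57, 0.37 and -0.48, voomLmFit). The summed fits set 1 clone against 4 and do not bear on single genes. The fit with the clone as a block did pass other genes in Wdr34 mutant 3, 251 as higher and 23 as lower of 12553. It too rests on 1 mutant clone.

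The ciliated Wdr34 clones were also compared with each other, a comparison added after the data had been seen. Spcs3 was at 217 to 238 CPM in the libraries of mutant 3 and at 123 to 129 CPM in those of mutant 1, a difference of 0.88 on the log2 scale (SE 0.04, adjusted p = 2.83e-12, edgeR). Sec11c was at 20.3 to 24.2 CPM against 14.0 to 15.9 CPM (0.56, SE 0.08, adjusted p = 1.12e-05, edgeR). Neither pair of ranges overlapped. Spcs2 was lower in mutant 3 (-0.12, SE 0.05, adjusted p = 0.0321, edgeR), and Spcs1 and Sec11a did not pass, so that 3 of 5 subunits passed beside 68.1% of all genes. This compares 1 clone with 1 clone.

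The range of the subunits was read over the 13 sets. The highest clone mean exceeded the lowest 1.3-fold for Sec11a (45.1 to 58.6 CPM), 1.4-fold for Spcs1 (51.5 to 72.2 CPM), 1.46-fold for Sec11c (14.8 to 21.6 CPM), 1.6-fold for Spcs2 (77.5 to 124 CPM) and 2.86-fold for Spcs3 (127 to 361 CPM). It did so 34.6-fold for Arxes2, but that gene was chosen by its difference between clones, so nothing is read from the wider range. Spcs3 was the most variable subunit. Its clone means were 361 CPM in non-ciliated control 1, 305 in control 2, 273 in the Wdr34 clone, 241 in control 3, 236 in AB and 202 in the Wdr60 clone. In ciliated cells they were 230 CPM in Wdr34 mutant 3, 196 in G7, 164 in D8, 142 in A4, 135 in Wdr60, 127 in H12 and 127 in Wdr34 mutant 1. Libraries of adjoining clones in this order did not overlap in 4 of 12 steps. Of the sets with libraries that stood apart, 3 had Spcs3 levels there outside the range of their other libraries by more than 10 CPM. In ciliated Wdr60 it was at 148 and 182 CPM in replicates 1 and 2 and at 94.2 and 116 CPM in replicates 3 and 4. In G7 it was at 148 CPM in replicate 4 and at 183 to 233 CPM in the others. In non-ciliated Wdr60 it was at 234 CPM in replicate 1 and at 186 to 195 CPM in the others. In AB (226 CPM against 221 to 256 CPM) and A4 (134 CPM against 136 to 150 CPM) replicate 1 lay within or close to the range of the others. In H12 replicate 1 stood apart by less (chi-square per degree of freedom of 14.0 to 19.5), with Spcs3 at 154 CPM against 114 to 124 CPM in the others.

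**Figure D5:**
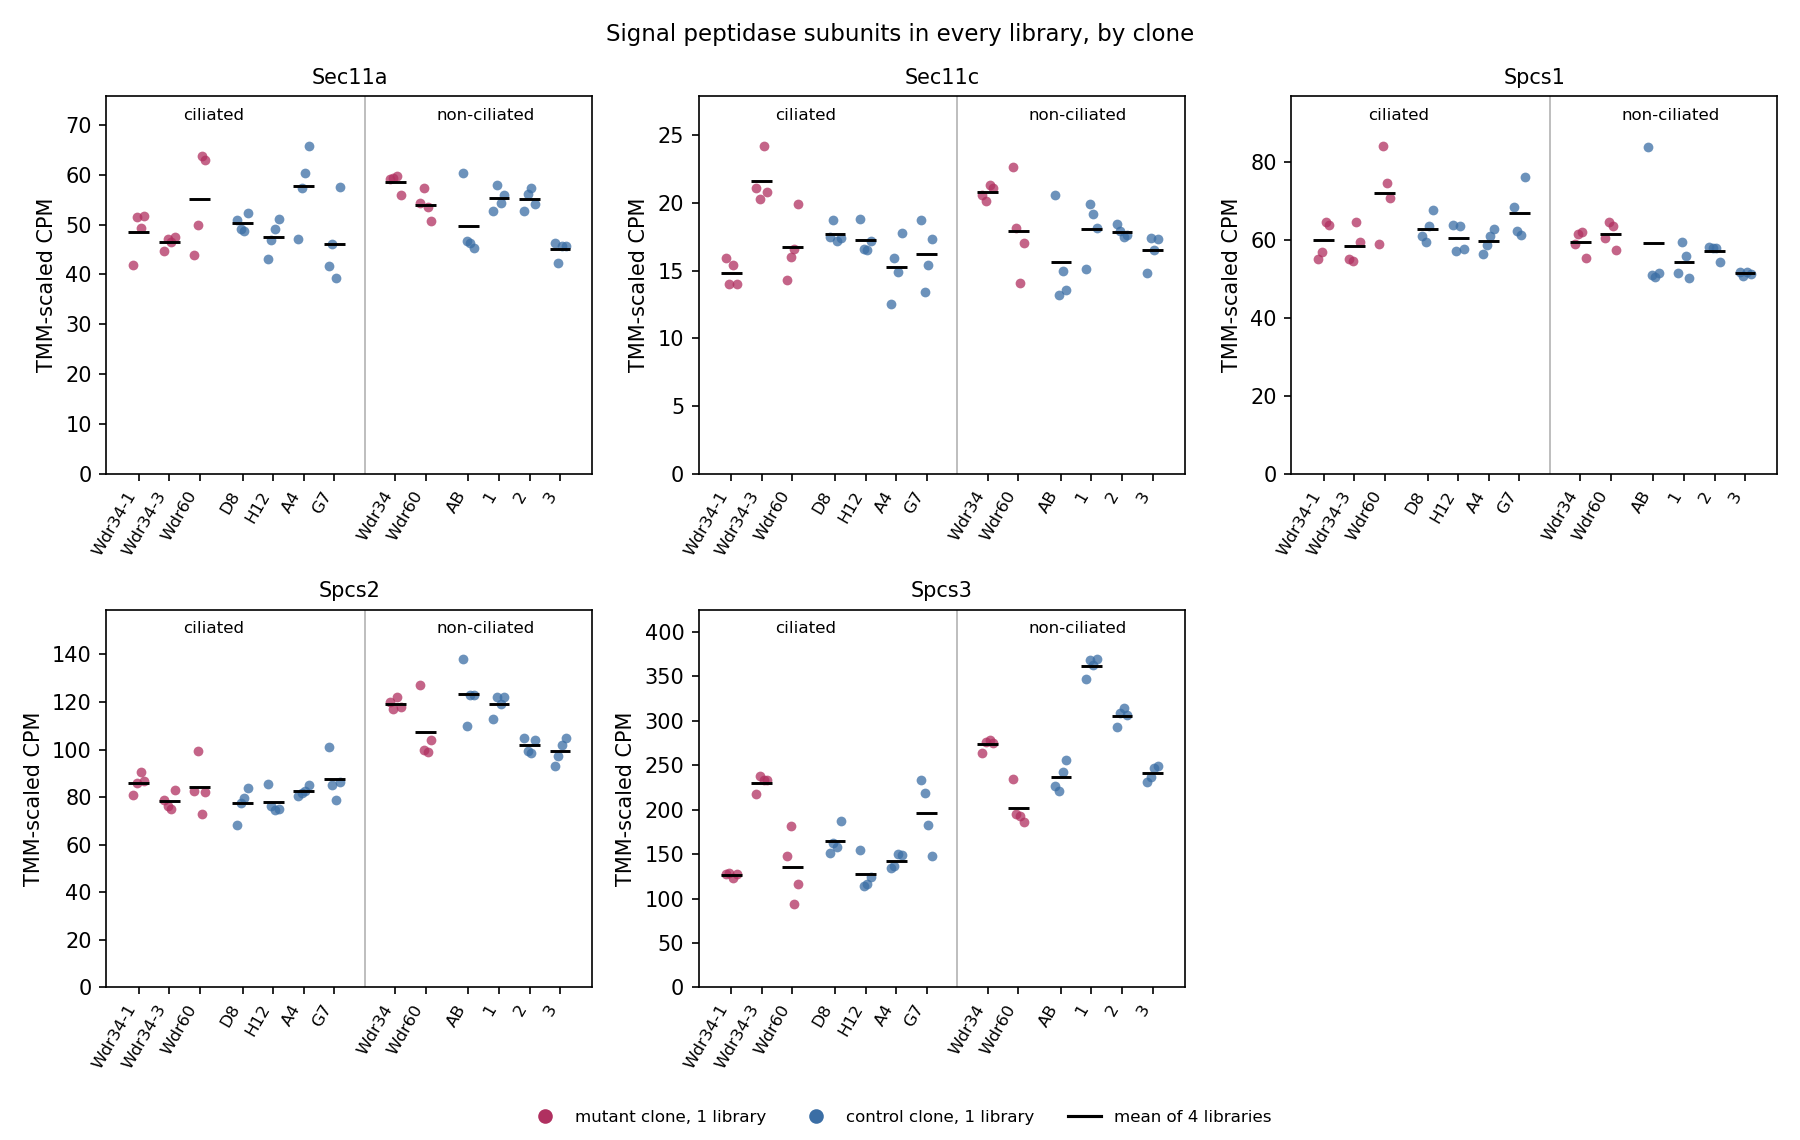
TMM-scaled CPM of the 5 signal peptidase subunits in each of the 52 libraries, by clone, with mutant clones in red, control clones in blue and a bar at the mean of 4 libraries. Spcs3 and Spcs2 lie lower in the ciliated than in the non-ciliated control clones, and Spcs3 in ciliated Wdr34 mutant 3 (230 CPM) lies above the other ciliated clones.

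Subunits were also compared between the states of the cells. Between ciliated and non-ciliated controls 3 of 5 subunits passed, a count near the 61.9% of all genes that passed. Spcs3 fell by 0.87 on the log2 scale in ciliated controls (SE 0.12, adjusted p = 8.39e-09, edgeR), a 1.83-fold lower level, from 286 ± 59.3 to 157 ± 29.8 CPM (SD, n = 4 clones each). Spcs2 fell by 0.46 (SE 0.05, adjusted p = 1.02e-10, edgeR), from 111 ± 12.3 to 81.4 ± 4.81 CPM (SD, n = 4 clones each). Spcs1 rose by 0.16 (SE 0.06, adjusted p = 0.0116, edgeR). This call was lost without control 3 (adjusted p = 0.0714), without G7 (0.074), and without replicate 3 (0.0937) or replicate 4 (0.239) of every clone. It was also lost with summed libraries (0.209, edgeR) and with the clone as a block (0.402, voomLmFit). The catalytic subunits Sec11a (-0.03, SE 0.06) and Sec11c (-0.04, SE 0.08) did not pass.

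The clone means of Spcs3, Spcs2 and Spcs1 did not overlap between states, as was the case for 22.5% of all 12544 genes. The exact 2-sided permutation test over clone means gave p = 0.0286 for each of the 3, the smallest that 4 against 4 sets allow. After adjustment over all genes it was 0.127, the smallest of any gene, so that 0 of 12544 genes passed this test. These tests and the edgeR fit take the control sets of the 2 states as independent. If the same clones were grown in both, a paired test would be needed. None was made, since the labels give no pairs and pairs were not drawn from the expression values. In bulk RNA, fewer cells expressing a gene and less RNA per cell cannot be told apart.

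The Arxes copies are given between control states without a test, since the control libraries also entered their choice and the copies passed the expression filter through the sets where they are high. The fitted log2 difference of Arxes2, ciliated minus non-ciliated, was -1.54 (SE 0.42), -1.52 (SE 0.82) with summed libraries, -0.56 (SE 0.91) with the clone as a block and -0.26 (SE 0.37) without AB, and the clone means overlapped. For Arxes1 it was -1.13 (SE 0.53), and 0.28 (SE 0.55) without AB. The log2 fold change of Arxes2 in mutants, ciliated minus non-ciliated, was 1.06 (SE 0.65) with AB, -0.22 (SE 0.56) without it and 0.04 (SE 1.08) with all clones and the clone as a block (voomLmFit).

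Genes beside the Arxes pair on the X chromosome were examined, 10 on each side. Of these 20 genes, 7 were tested in ciliated and 8 in non-ciliated cells, and 0 passed in either mutant comparison (edgeR), beside 3.17% and 15% of all genes, so that few or none of so small a number would pass at the background share. Bex1, which lies 8 genes beyond the pair, did not pass, with log2 fold changes of 1.05 in ciliated mutants (adjusted p = 0.0895, edgeR) and 0.26 in non-ciliated mutants (0.765). In control AB it was at 78.9 CPM, above the other control clones. Bex4, 4 genes beyond the pair, was also highest in AB (18.1 CPM) but had negative log2 fold changes in mutants. These were -0.93 in ciliated and -1.12 in non-ciliated cells (adjusted p of 0.369 and 0.227, edgeR), and its r with Arxes2 was -0.05. Tceal8 had a log2 fold change of 0.32 in non-ciliated mutants and did not pass either (adjusted p = 0.0565, edgeR). Its level had an r of 0.59 with Arxes2 over the 13 sets, the highest of the neighbours that had any counts.

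Markers of fat cells were read as well, since the Arxes genes are known from these cells. Over all 52 libraries Pparg had 3 counts, Adipoq 2, Plin1 1 and Fabp4 14. Others were present: the transcription factor gene Cebpa had 465 counts (0.0283 to 1.82 CPM over the 13 sets), the glucose transporter gene Slc2a4 732, and the lipase genes Lipe 7987 and Pnpla2 62300. Retn had 117 counts and Cidea 103, with highest clone means of 0.464 and 0.772 CPM. Between control states Cebpa was higher in ciliated cells (1.86, SE 0.48, adjusted p = 0.000739, edgeR), and so was Pnpla2 (0.31, SE 0.06, adjusted p = 1.51e-05, edgeR), 2 of 4 tested markers beside 61.9% of all genes. Neither passed with summed libraries (adjusted p of 0.148 and 0.092, edgeR) or with the clone as a block (0.347 and 0.0685, voomLmFit). From 3 to 5 of the 15 markers passed the expression filter in a comparison. None of the 4 tested passed in ciliated mutants. Lipe, a lipase also active outside fat, was lower in non-ciliated mutants (-0.38, SE 0.10, adjusted p = 0.0159, edgeR). The call was lost with summed libraries (-0.37), where 0 of 13406 genes passed. It was also lost with the clone as a block (-0.38, adjusted p = 0.89, voomLmFit). Both fits use the same libraries, so that their like fold changes are no further support. The summed level of the 15 markers was 76.4 to 89.5 CPM in ciliated mutant clones and 76.7 to 99.9 CPM in ciliated controls, and 55.6 to 65.5 and 63.1 to 75.9 CPM in non-ciliated mutants and controls, most of it Pnpla2.

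Proteins that act with signal peptidase were taken from fixed lists, chosen with earlier results of these data known. In ciliated mutants 1 of 21 tested genes of ER targeting and translocation passed, Sec61a2 (-0.41, SE 0.11, adjusted p = 0.0407, edgeR), a paralogous gene for the channel subunit of the translocon, beside 3.17% of all genes. With summed libraries 0 of 13243 genes passed (edgeR), and with the clone as a block Sec61a2 had an adjusted p of 1 (voomLmFit). Its log2 fold changes there were -0.41 and -0.44, from the same libraries, and are no further support. None of 12 oligosaccharyltransferase, 13 ER stress or 3 signal peptide peptidase genes passed. The list of signal peptide peptidases held 4 genes, but Hm13 was not found in the counts under that symbol and was not read. In non-ciliated mutants Sec61b (0.52) of the translocation channel, the peptidase Sppl3 (0.15) and the oligosaccharyltransferase subunits Tmem258 (0.46), Ost4 (0.44) and Ddost (0.23) passed as higher by edgeR, 1 of 21, 1 of 3 and 3 of 12 genes, beside 15% of all genes in either direction. With summed libraries 0 of 13406 genes passed (edgeR), and with the clone as a block these 5 were not among the passing genes (adjusted p of 0.595 to 0.921, voomLmFit). Their log2 fold changes were 0.15 to 0.56 with summed libraries and 0.14 to 0.63 with the block. These fits use the same libraries, so that values like the main ones are no further support.

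Between control states, where Spcs3 and Spcs2 were lower in ciliated cells, the lists are read against the 61.9% of all genes that passed, or 18.4% with summed libraries. Of the 13 ER stress genes 9 fell and 3 rose in ciliated controls (edgeR), 7 and 1 with summed libraries, with a median of -0.73 beside 0.02 over all genes. The chaperone genes Pdia4 (-1.18), Hspa5 (-1.04) and Hsp90b1 (-0.84) and the secreted factor gene Manf (-0.90) had the largest falls. Of 21 genes of ER targeting and translocation 12 fell and 3 rose (median -0.25), and 5 and 0 did with summed libraries, led by the signal recognition particle genes Srp72 (-0.70) and Srp9 (-0.69). Of 12 oligosaccharyltransferase genes 5 fell and 1 rose (median -0.13), and 2 and 1 did with summed libraries, with Ostc at -0.84 and Tusc3 at 0.81. The counts of 15 of 21 and 6 of 12 lie near and below the share of all genes. Of 3 signal peptide peptidase genes Sppl3 rose (0.67, SE 0.06, adjusted p = 6.67e-13, edgeR), also with summed libraries (adjusted p = 0.00235, edgeR) and with the clone as a block (adjusted p = 0.00617, voomLmFit). Sppl2a (-0.17) and Sppl2b (-0.19) passed by edgeR but not by DESeq2 or in those fits.

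Genes with a pattern like that of Spcs3 over the 13 sets, each state centred on its mean, were Hccs (r = 0.93), Zeb1 (0.90), Fkbp14 (0.89), Cebpd (0.88) and Bnc2 (0.87), out of 11709 genes. Wdr34 mutant 3, G7 and non-ciliated control 2, where Spcs3 was among the highest of its state, were low in the keratin gene Krt8 (76.5, 26.8 and 41.5 CPM, against 375 CPM or more in the other sets). They were high in Zeb1, a repressor of epithelial genes (67.2, 71.9 and 82.7 CPM, against 38.4 CPM or less). Zeb1 was picked by its likeness to Spcs3, so that this restates the choice. Krt18 was low in the same sets as well (148, 68.8 and 113 CPM). Cdh1 and Epcam were low in G7 (14.7 and 13.7 CPM) and in control 2 (4.27 and 2.89 CPM). Wdr34 mutant 3 had 300 and 286 CPM, within the range of non-ciliated sets and below the ciliated sets other than G7. Non-ciliated control 1, with the highest Spcs3 of all sets (361 CPM), was not low in Krt8 (586 CPM) and had Zeb1 at 38.4 CPM. Over the 13 sets Spcs3 had a Pearson r of -0.58 with Krt8 (Spearman rho -0.31), -0.56 with Krt18 (rho -0.26), -0.54 with Epcam (rho -0.78) and -0.46 with Cdh1 (rho -0.59), the 4 epithelial genes examined. In Wdr34 mutant 3 the stromal gene Dcn was 6.28 higher than in controls on the log2 scale (SE 0.56, adjusted p = 1.01e-07, edgeR), 1 of 2 tested fibroblast markers beside 20.8% of all genes. The other, the collagen gene Col1a1, did not pass there and was lower than in Wdr34 mutant 1 (-0.94, SE 0.25, adjusted p = 0.00351, edgeR). The summed level of the 9 fibroblast markers was 2.31 to 31.6 CPM in ciliated mutants and 1.38 to 2.51 CPM in ciliated controls, with 29.1 CPM of the highest value from Dcn alone, and their part in the Spcs3 and Sec11c values was not tested. For Sec11c the most similar genes were Dhodh (0.88), Rcn2 (0.85), Ctps (0.85), Tpst1 (0.84, Spearman rho 0.54) and Hnrnpa2b1 (0.81).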

How the data were processed

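RNA from 13 sets of 4 libraries (52 libraries), each a clone in 1 state, was made into libraries with a SMARTer mRNA kit and sequenced as paired 150-base reads. The authors deposited raw counts per gene from featureCounts (Rsubread 1.28.1, R 3.4.4) on GRCm38, and tested them with DESeq2 1.18.1. The strand setting and the handling of reads that match several genes are not given in the sources used here.

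The 7 genes and all lists were chosen with earlier results of these data known. Counts were fitted over whole tables with edgeR 4.0.16 (TMM, filterByExpr, quasi-likelihood test, 2-sided, Benjamini-Hochberg) in R 4.3.3, and a gene passed at an adjusted p under 0.05. CPM were TMM-scaled over all libraries, and clone means were compared on log2(CPM + 0.5). Named genes were the 7 members, up to 4 passing genes per list by size of change, the 5 genes most like Arxes2, Spcs3 and Sec11c, 10 neighbours on each side of the Arxes pair, and the edited genes. Alternatives were DESeq2 1.42.0, limma 3.58.1 (voomLmFit, clone as block), summed libraries, filters, scalings, a replicate block and leaving out libraries or clones. The fits were tested on simulated data.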

Additional observations from a re-analysis of the deposited data

Results flagged for a closer look

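Of 105 groups tested for an outlier by Dixon's criterion, 10 had 1 value far from the others, which chance meets in about 5 of 100 groups of continuous values. The groups were not all libraries of 1 clone, but the 10 outliers were each a library within a clone. For Arxes1 these were the highest libraries of non-ciliated control 1 (0.0513 CPM), control 3 (0.0996 CPM) and ciliated control D8 (0.181 CPM), each beside 3 libraries at 0, where any count meets the criterion. For Sec11a they were the lowest library of the non-ciliated Wdr34 clone (56 CPM), the highest of AB (60.3 CPM) and the lowest of control 3 (42.3 CPM). For Spcs1 they were the highest library of AB (83.9 CPM, next 51.7 CPM) and the lowest of non-ciliated control 2 (54.4 CPM). For Spcs2 they were the highest library of the non-ciliated Wdr60 clone (127 CPM, next 104 CPM) and of ciliated control H12 (85.7 CPM).

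The effects of the ciliated Wdr34 clones differed from each other for 3 of 5 subunits by edgeR, beside 68.1% of all genes: Spcs3 by 0.88 (adjusted p = 2.83e-12), Sec11c by 0.56 (adjusted p = 1.12e-05) and Spcs2 by -0.12 (adjusted p = 0.0321). Spcs2 did not pass under DESeq2 (adjusted p = 0.057). The count of 3 of 5 is no higher than the share of all genes. This compares 1 clone with 1 clone, so that the p-values measure the spread between libraries only.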

How the results depend on the processing

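Counts of passing subunits kept their side in 169 settings, and were higher in 8 and lower in 16. At a log2 fold change of at least 1 the count was 0 between control states, in ciliated Wdr34 mutant 3, in the non-ciliated Wdr60 clone and between the Wdr34 clones. At an adjusted p under 0.01, with summed libraries and with voomLmFit it was 0 in ciliated Wdr34 mutant 3 and in the non-ciliated Wdr60 clone. DESeq2 passed 1 subunit in the non-ciliated Wdr34 clone. Leaving out a library number or a clone gave 0 to 2 subunits in non-ciliated mutants, 0 to 2 in ciliated Wdr34 mutant 3 (0 without replicate 3, 1 without replicate 4), 0 to 1 in the non-ciliated Wdr34 clone and 0 to 2 in the non-ciliated Wdr60 clone (0 without replicate 2, 3 or 4). Without control AB the difference of the Arxes2 mutant effect between states turned to -0.22, in a range of -0.22 to 1.43 over the clones and library numbers left out, and it was 0.04 with voomLmFit. The causes were not tested. Replicate numbers did not pair libraries (median r of same-numbered libraries 0.01, 13 of 52 best matched by their own number), and with the replicate block the count in the non-ciliated Wdr60 clone was 0 (Spcs3 adjusted p = 0.0523, edgeR). Arxes1, at 0 to 32 counts per library, is limited by depth.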

Other observations

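The genes whose pattern over the 13 sets was most like that of Arxes2 were Psmg3 (r = 0.91), Triap1 (0.90), Slc22a15 (0.89), Coq5 (0.88) and Psmd9 (0.88), of 11709 genes, each state centred on its mean. All but Slc22a15 lie on chromosome 5, as do 24 of the 50 most similar genes, beside 6.61% of the 11163 genes placed. These genes were ranked by likeness to a gene chosen in these data, and they are not independent of each other. The count is therefore a description without a test. The median deviation of the 738 chromosome 5 genes from the mean of their state was 0.23 and 0.24 on the log2 scale in the non-ciliated and ciliated Wdr60 clones, and -0.13 to 0.06 in the other 11 sets. Like values recurred between states in other sets too. On chromosome 3 the median was 0.31 in the non-ciliated Wdr34 clone and 0.28 in ciliated Wdr34 mutant 1, 0.23 in both AB and H12, and -0.42 in control 3 and -0.36 in D8. On chromosome 1 it was -0.46 in control 2 and -0.38 in G7. On chromosome 6 it was -0.38 in AB, -0.31 in H12 and -0.33 in both Wdr60 sets. These values were not used to pair sets, and sets of the 2 states are not separate observations where they are from the same clone. On chromosome 18, where Sec11c lies, the median was 0.20 in ciliated Wdr34 mutant 3, -0.31 in AB and -0.12 to 0.12 in the other sets. Its part in the Sec11c values was not tested.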
